A study of Mus musculus with 4 samples.

Results

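Keratins are the intermediate filament proteins of epithelial cells, and 10 keratin genes of the 28693 genes counted are described here in the luminal and basal cells of the mouse mammary gland. The members are *Krt8*, *Krt18*, *Krt19*, *Krt7* and *Krt23*, and *Krt5*, *Krt14*, *Krt17*, *Krt15* and *Krt6a*. They were chosen by gene symbol as keratins of luminal cells and keratins of basal or stratified epithelia. Every member was found as 1 row of the count matrices.

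Droplet-based 3' single-cell RNA counts came from 4 libraries, 1 per mouse. Both WT libraries (replicates 1 and 2) came from Lats1 f/f, Lats2 f/f mice heterozygous for R26-lsl-EYFP and without Cre. Both LATS1/2 KO libraries came from mice with the same floxed alleles plus Krt8-CreERT2, with R26-lsl-EYFP heterozygous in replicate 1 and homozygous in replicate 2. All 4 mice were adult and nulliparous, received 2 mg of tamoxifen in corn oil by intraperitoneal injection on 5 consecutive days, and were collected 7 days after the last dose. Live cells were sorted by Calcein Blue AM from gland pairs 3, 4 and 5, after removal of the lymph nodes from pair 4. Cre was driven by the promoter of *Krt8*, itself a member, and *EYFP* transcripts mark cells in which Cre was active. The WT mice therefore lacked Cre as well as the deletion.

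Keratins work as obligate pairs. An acidic type I chain joins a basic type II chain, and the pairs assemble into filaments that are anchored to desmosomes between cells and to hemidesmosomes at the basement membrane. In the mammary gland, KRT8 (type II) with KRT18 and KRT19 (type I) form the filaments of luminal cells, which line the duct lumen and are divided into ER-negative cells and hormone-sensing cells with estrogen and progesterone receptors. KRT5 (type II) with KRT14 (type I) form those of the contractile basal cells, where KRT17 is found as well. KRT7 is a type II partner of simple and glandular epithelia, KRT6A is a type II keratin best known from wounded and hyperproliferative epidermis, KRT15 is a type I keratin of basal epidermal cells, and KRT23 is a less studied type I keratin. LATS1 and LATS2 are the kinases of the Hippo pathway that hold back YAP and TAZ, the coactivators of TEAD transcription factors.

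The members lie in the 2 keratin clusters of the mouse genome (GRCm38, GENCODE vM21). Of the 6 type I genes, 5 are on chromosome 11, from *Krt23* at 99477974-99493137 (minus strand) through *Krt15* at 100131758-100135928, *Krt19* at 100140810-100148665 and *Krt14* at 100203162-100207548 to *Krt17* at 100256217-100261029 (all minus strand). *Krt18*, also type I, lies on chromosome 15 at 102028180-102032027 (plus strand) beside its partner *Krt8* at 101996698-102004482 (minus strand). The other type II genes are also on chromosome 15, with *Krt7* at 101411043-101430313 (plus strand), *Krt6a* at 101689910-101694307 and *Krt5* at 101707070-101712898 (both minus strand). *Krt6a* and *Krt5* are neighbours in this order. Because keratins are paralogs and only the 3' end of a transcript was read, the last 500 bases of each member were compared in windows of 50 bases with all other annotated transcripts. *Krt14* and *Krt17* each shared 43 of 451 windows (9.53%) with other type I keratin transcripts, *Krt18* shared 5 of 451 (1.11%) with *Gm5200*, and the other 7 members shared none, so reads from those stretches of *Krt14* and *Krt17* cannot be assigned to a single gene.

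The RefSeq promoter windows (GRCm38.p6, from 250 bases before to 50 bases after the annotated start) of 4 members are printed because *Krt14* rose most in the luminal classes and *Krt7* in basal cells, *Krt5* is the partner of *Krt14*, and *Krt8* drove the Cre. Capitals mark any match, on either strand, to the TEAD core GGAATG, the TATA box TATAAA or the AP-1 site TGANTCA (no motif contains another). The windows are *Krt14* at chr11:100205981-100206280 (minus strand), *Krt7* at chr15:101412153-101412452 (plus strand), *Krt5* at chr15:101712856-101713155 (minus strand) and *Krt8* at chr15:102004293-102004592 (minus strand).
Krt14: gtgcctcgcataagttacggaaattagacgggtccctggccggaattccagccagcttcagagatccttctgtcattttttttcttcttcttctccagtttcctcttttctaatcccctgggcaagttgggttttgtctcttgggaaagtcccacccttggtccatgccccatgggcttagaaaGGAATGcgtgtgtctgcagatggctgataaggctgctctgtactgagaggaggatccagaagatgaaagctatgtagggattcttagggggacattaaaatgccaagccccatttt
Krt7: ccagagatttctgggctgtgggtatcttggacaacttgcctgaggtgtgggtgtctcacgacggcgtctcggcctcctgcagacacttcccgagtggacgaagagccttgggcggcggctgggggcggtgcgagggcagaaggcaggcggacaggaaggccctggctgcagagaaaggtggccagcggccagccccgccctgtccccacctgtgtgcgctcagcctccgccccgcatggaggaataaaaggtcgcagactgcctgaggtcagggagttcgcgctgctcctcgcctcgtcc
Krt5: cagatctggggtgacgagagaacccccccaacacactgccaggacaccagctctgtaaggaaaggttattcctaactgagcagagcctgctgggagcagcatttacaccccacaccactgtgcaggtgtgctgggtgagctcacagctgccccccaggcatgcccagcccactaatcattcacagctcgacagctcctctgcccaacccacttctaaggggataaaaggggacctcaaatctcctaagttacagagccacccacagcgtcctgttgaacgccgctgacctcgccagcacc
Krt8: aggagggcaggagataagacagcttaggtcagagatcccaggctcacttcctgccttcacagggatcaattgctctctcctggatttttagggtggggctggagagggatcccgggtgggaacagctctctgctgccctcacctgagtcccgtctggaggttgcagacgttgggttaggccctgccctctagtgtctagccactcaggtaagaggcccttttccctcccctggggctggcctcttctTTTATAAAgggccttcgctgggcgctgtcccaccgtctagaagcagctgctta
The *Krt14* window held 1 TEAD core, beginning at position -66 from the RefSeq start. That start lies 1518 bases inside the annotated coding transcript, so the window belongs to a shorter noncoding transcript and is not the promoter of the coding one. The *Krt8* window held overlapping TATAAA matches on the 2 strands, at positions -3 and -1, and its start lies 140 bases inside the coding transcript. *Krt7* and *Krt5* held no match, nor did *Krt18* and *Krt23*, the remaining matched members of 6. Of 32851 RefSeq promoter windows of the same length, 14.7% held the TEAD core, 13.6% TATAAA and 7.81% the AP-1 motif, so these matches describe letters that are common among promoters.

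From 20324 barcodes, 18200 passed the filters (over 500 genes, less than 20% mitochondrial counts), with 39319356 to 47321220 deposited UMIs per library and median depths of 5962.5 to 10141 UMIs per kept cell. Cells were gated from markers without any keratin: 10 luminal ER-negative markers (such as *Elf5*, *Kit* and *Csn3*), 10 hormone-sensing markers (such as *Esr1*, *Pgr* and *Prlr*) and 12 basal markers (such as *Trp63*, *Oxtr* and *Acta2*). The gates held 8355 luminal ER-negative, 2553 hormone-sensing and 984 basal cells. In each luminal ER-negative sum the 10 luminal ER-negative markers reached 17917 to 21722 CPM together, against 44.8 to 111 for the 12 basal markers. The gate used these same lists, so this gap follows from it. A further 845 and 792 epithelial cells of the LATS1/2 KO libraries passed no lineage gate, against 9 and 9 in WT, and are described separately. The luminal ER-negative gate thus holds only those LATS1/2 KO cells that kept the luminal markers. Of the deleted genes, *Lats1* had 25.7 and 25.6 CPM in luminal ER-negative cells of the WT libraries and 17.3 and 20.6 in those of LATS1/2 KO, while *Lats2* had 15.2 and 17.2 CPM and 27.4 and 29.3 CPM. The counts are 3' tags and the sources used here do not state whether those tags lie in the deleted parts, so they check the labels only in part. *EYFP* was detected in 13.4% and 16.4% of the luminal ER-negative LATS1/2 KO cells and in 0.268% and 0.418% of the WT ones. Pairs of libraries shared 4 to 12 cell barcodes.

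In WT, the members differed between the 3 classes, in CPM of the summed UMIs without further scaling (mouse replicates 1 and 2). *Krt8* was highest in hormone-sensing cells (4795 and 4897 CPM), lower in luminal ER-negative cells (3406 and 3469) and lowest in basal cells (408 and 433), and the 3 ranges did not overlap. *Krt19* had the same order, with 7722 and 4852 CPM in hormone-sensing, 1263 and 1354 in luminal ER-negative and 139 and 98.1 in basal cells. *Krt14* reached 2001 and 1882 CPM in basal cells and 3.92 and 2.85 in luminal ER-negative cells, which did not separate from hormone-sensing cells (5.56 and 3.08). *Krt7* was mostly a gene of hormone-sensing cells in WT (444 and 466 CPM), with 76.3 and 87.8 in luminal ER-negative and 8.39 and 10.1 in basal cells. *Krt6a* was close to absent outside the hormone-sensing gate (5.88 and 9.82 CPM there, 0.264 and 0.136 in luminal ER-negative cells, 0 UMIs in both basal sums). *Krt15* was detected at 26.8 and 30.4 CPM in basal and at 18 and 15.8 CPM in hormone-sensing cells.

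**Figure D1:**
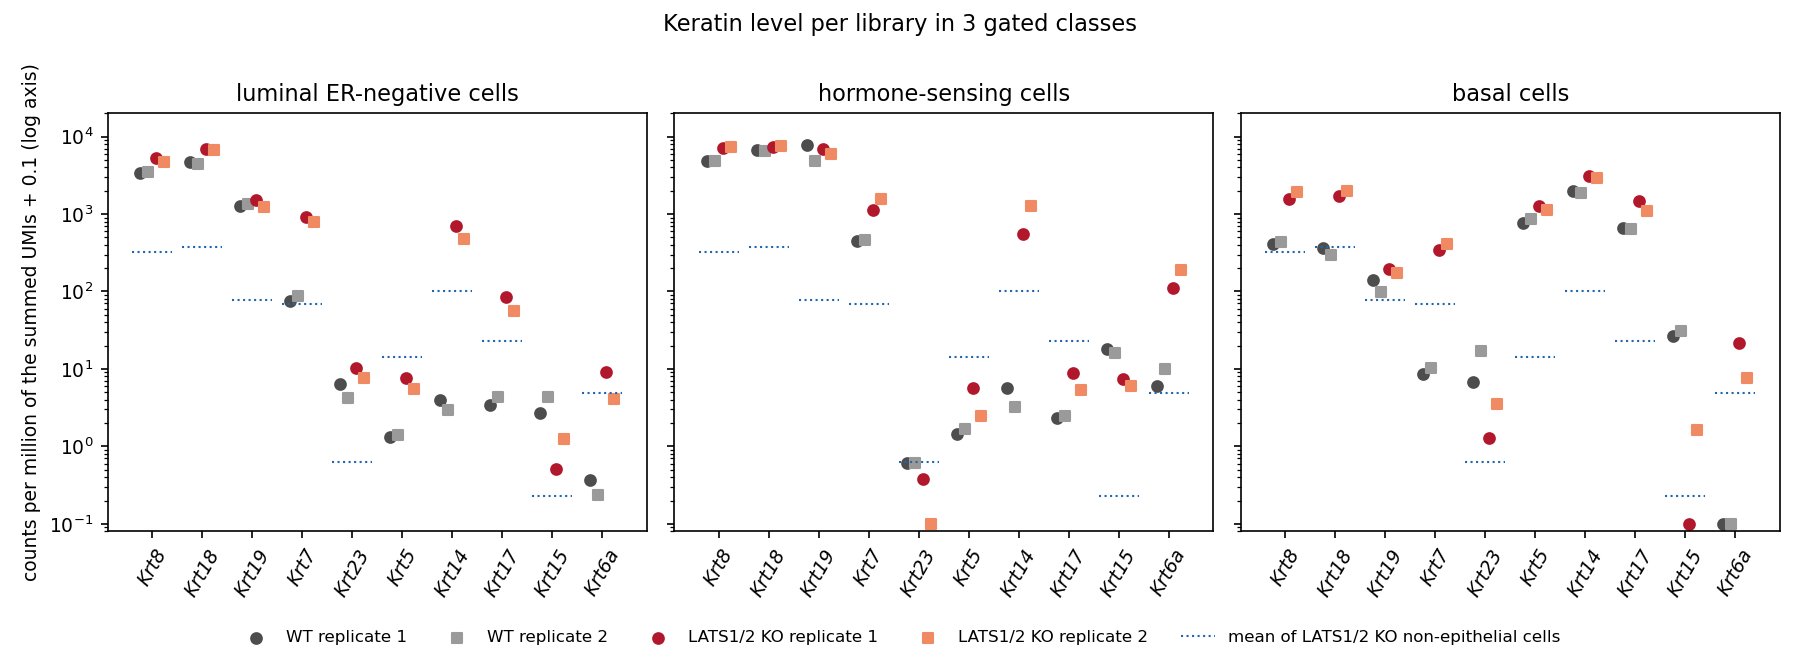
Level of each of the 10 keratins in CPM plus 0.1 (log axis) in luminal ER-negative, hormone-sensing and basal cells, 1 point per library (2 WT, 2 LATS1/2 KO), with a dotted line at the mean of the cells gated as not epithelial in the LATS1/2 KO libraries. *Krt14* and *Krt7* lie far higher in LATS1/2 KO than in WT luminal ER-negative cells, while *Krt5* in those cells stays under the dotted line.

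The first comparison asked how the keratins of luminal ER-negative cells differ after deletion of Lats1 and Lats2 in luminal cells. Of the 10 members, 5 were higher in LATS1/2 KO (*Krt14*, *Krt6a*, *Krt17*, *Krt7* and *Krt5*), 1 was lower (*Krt15*) and 4 did not pass the test, in edgeR's quasi-likelihood test with Benjamini-Hochberg adjustment over 13223 genes. In this comparison 55.8% of all genes tested were called, 28.7% as higher and 27.1% as lower. The members called are thus 6 of 10, a share near that of all genes. Those called as higher are *Krt14*, *Krt17* and *Krt5* of basal cells, *Krt7*, and *Krt6a*. Mean *Krt6a* in WT was 7.85 CPM without TMM in hormone-sensing and 0 in basal cells. With this gate and scaling the luminal pair *Krt8* and *Krt18* was not called. The per-library values that follow are TMM-scaled CPM, in the order WT replicates 1 and 2, then LATS1/2 KO replicates 1 and 2.

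*Krt14*, the type I keratin of basal cells, had 4.43 and 3.20 CPM in WT and 634 and 421 in LATS1/2 KO luminal ER-negative cells. Both LATS1/2 KO libraries stood far above both WT libraries, and the log2 fold change was 7.10 ± 0.28 (SE), with an adjusted p of 8.43e-06 (edgeR). *Krt17*, also of basal cells, rose from 3.75 and 4.73 to 76.3 and 49.1 CPM (log2 fold change 3.89 ± 0.25). *Krt7*, the simple-epithelial type II keratin, rose from 86.2 and 98.6 to 818 and 702 CPM (3.04 ± 0.13, edgeR adjusted p 1.25e-05), and its LATS1/2 KO libraries lay closer together than those of *Krt14*. *Krt6a*, the wound keratin, rose from 0.298 and 0.152 to 8.10 and 3.52 CPM (4.60 ± 0.58). Its level stayed low in absolute terms, with the LATS1/2 KO libraries unlike each other but clear of WT.

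*Krt5*, the type II partner of *Krt14* in basal cells, rose from 1.36 and 1.47 to only 6.71 and 4.84 CPM (log2 fold change 2.02 ± 0.27, edgeR adjusted p 0.00081). This rise is the smallest of the 5. *Krt15*, a basal-type keratin as well, moved the other way, from 2.94 and 4.78 to 0.363 and 1.02 CPM (-2.42 ± 0.46, adjusted p 0.00403).

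The luminal keratins were high in all 4 libraries. *Krt8* had 3850, 3897, 4682 and 4212 CPM (log2 fold change 0.20 ± 0.11, edgeR adjusted p 0.169), and *Krt18* had 5248, 5046, 6137 and 6031 CPM (0.24 ± 0.11, adjusted p 0.0938). In both genes the LATS1/2 KO libraries lay above the WT libraries by a small margin that did not pass the test. *Krt19* had 1428, 1521, 1359 and 1107 CPM (-0.26 ± 0.13, adjusted p 0.129), and *Krt23* 7.11, 4.68, 9.13 and 6.57 (0.40 ± 0.26, adjusted p 0.227). These 4 depend on the scaling. Without TMM, when counts are divided by their totals alone, the median log2 fold change of all genes is 0.36, against 0.01 with TMM, and *Krt8* (0.54), *Krt18* (0.58) and *Krt23* (0.74) then pass as higher, while *Krt19* turns to 0.08. With classes taken from clusters in place of the gate, *Krt8* (0.51) and *Krt18* (0.42) pass as higher and *Krt19* (-0.42) as lower, and *Krt19* also passes as lower without LATS1/2 KO replicate 1 (-0.44).

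Free RNA in the droplets was gauged from the cells gated as not epithelial, which should lack keratins. In those of LATS1/2 KO replicates 1 and 2, *Krt14* had 129 and 73.6 CPM without TMM, against 711 and 476 in luminal ER-negative cells of the same libraries. *Krt7* had 84.5 and 54.2 there against 917 and 793, and *Krt17* 26.9 and 19.3 against 85.5 and 55.4. *Krt6a* was closer, with 6.28 and 3.24 against 9.08 and 3.97 CPM, and *Krt5* was higher in the cells that are not epithelial (15.7 and 12.6 CPM) than in luminal ER-negative cells (7.52 and 5.47). The *Krt5* values of LATS1/2 KO luminal ER-negative cells are thus at or below the background of their own libraries, and *Krt6a* is not clear of it. This background was not matched for depth. The cells that are not epithelial had medians of 3941 and 4129 UMIs in LATS1/2 KO, against 7624 and 8127.5 in luminal ER-negative cells. Markers of other cell types also moved with the groups. In luminal ER-negative sums the 6 fibroblast markers reached 13.4 and 12.3 CPM in WT and 212 and 212 in LATS1/2 KO, all 6 detected in each library, and the 7 immune markers 7.69 and 9.18 against 32.1 and 31.8. In hormone-sensing sums the fibroblast markers reached 65.4 and 271 CPM in WT and 376 and 300 in LATS1/2 KO, and in basal sums 205 and 171 against 306 and 316. The part of free RNA and of these cells in the other differences was not tested.

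**Figure D2:**
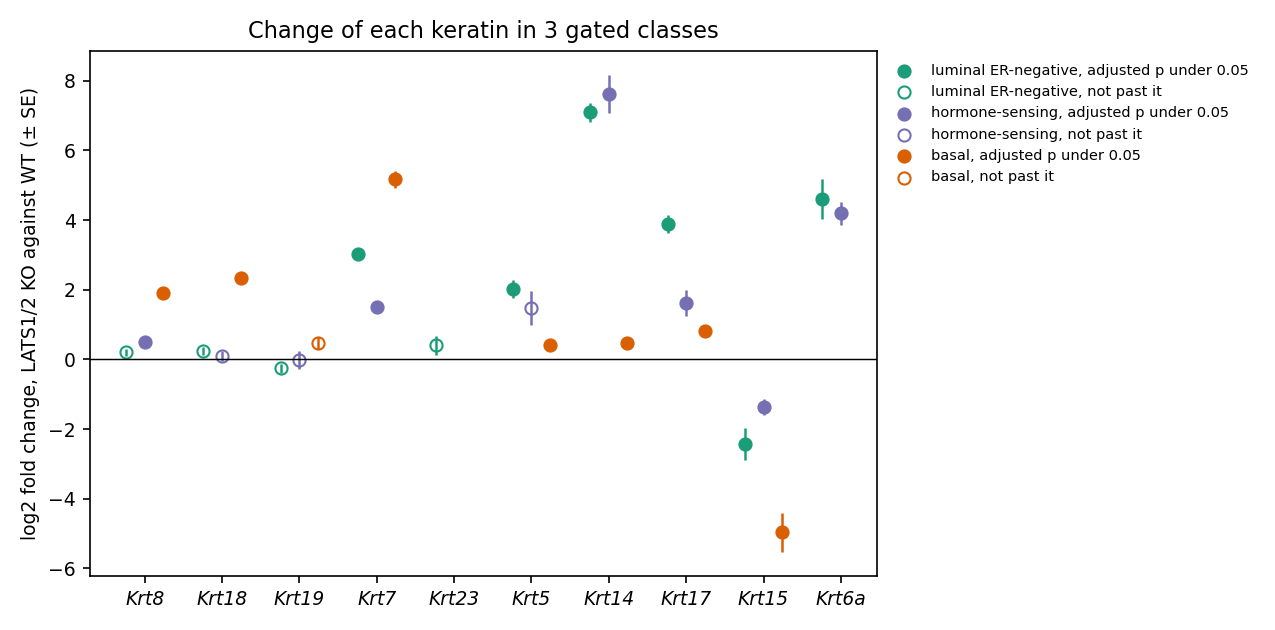
Log2 fold change (LATS1/2 KO over WT, TMM scale) with its standard error for each keratin in luminal ER-negative, hormone-sensing and basal cells, filled where edgeR's adjusted p was under 0.05. *Krt14* is near 7 in both luminal classes and 0.47 in basal cells, and *Krt15* is below 0 in all 3 classes.

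The partner genes *Krt14* and *Krt5* came apart. In basal cells *Krt5* had 38.8 and 45.4 UMIs per 100 *Krt14* UMIs in WT and 41.2 and 39.5 in LATS1/2 KO, so the ratio lay within one narrow range in all 4 libraries. For luminal ER-negative cells it was 30.8 and 46.0 in WT, from few UMIs, and 1.06 and 1.15 in LATS1/2 KO. In hormone-sensing cells it was 24.1 and 51.2 in WT and 1.01 and 0.183 in LATS1/2 KO, and in the epithelial LATS1/2 KO cells without a lineage gate 0.375 and 0.652. The cells that are not epithelial had 12.2 and 17.1 in LATS1/2 KO, between the 2 levels. In WT, mean *Krt14* and *Krt5* without TMM were 3.38 and 1.26 CPM in luminal ER-negative cells. They were 4.32 and 1.46 CPM in hormone-sensing cells, against 7.34 and 3.03, from few UMIs, in WT cells that are not epithelial. The WT ratios of both luminal classes are thus not clear of background. The ratio in LATS1/2 KO luminal cells is below that of every basal sum and of the cells that are not epithelial in the same libraries. Per cell the wide gap to basal cells was seen again, while the gap to the cells that are not epithelial was narrow. Among *Krt14*-positive cells, each thinned to 2000 UMIs, *Krt5* was detected in 69.5% and 82.8% of WT basal cells and 79.4% and 75.4% of LATS1/2 KO basal cells, but in 2.25% and 2.17% of LATS1/2 KO luminal ER-negative cells and 4.29% and 3.38% of LATS1/2 KO cells that are not epithelial. *Krt7*, another type II member that rose, as did *Krt6a*, was detected in 74.3% and 64.4% of *Krt14*-positive LATS1/2 KO luminal ER-negative cells. *Krt14* in turn was detected in 51.5% and 37.5% of the *Krt7*-positive cells and in 30.8% and 20.2% of the cells without *Krt7*.

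**Figure D3:**
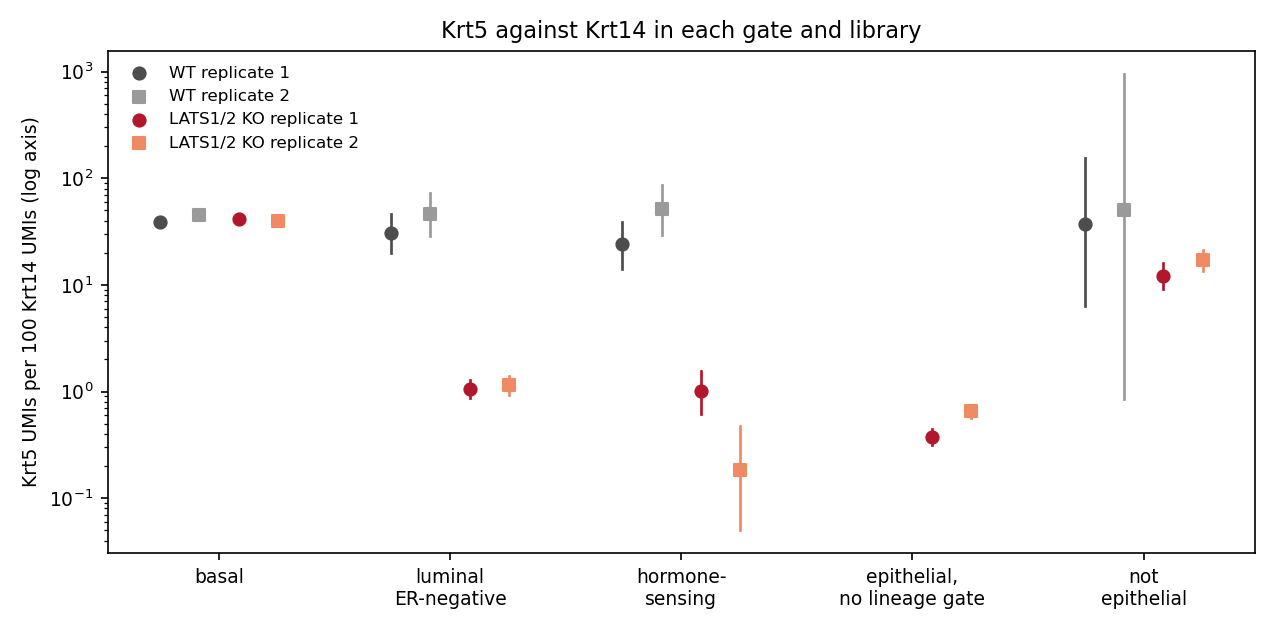
*Krt5* UMIs per 100 *Krt14* UMIs in each library and cell class, with 95% exact binomial intervals for counting error. Basal cells of all 4 libraries lie between 38.8 and 45.4, while luminal cells of both LATS1/2 KO libraries lie at or under 1.15.

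In hormone-sensing cells 9 members were tested, *Krt23* having too few counts, and 5 were higher in LATS1/2 KO, 1 lower and 3 not called. Over all 12189 genes 26.5% were called, 14.3% as higher and 12.1% as lower. *Krt14* went from 5.76 and 3.11 TMM-scaled CPM in WT to 546 and 1235 in LATS1/2 KO (log2 fold change 7.63 ± 0.55, edgeR adjusted p 0.00131). Its LATS1/2 KO libraries differed from each other more than in luminal ER-negative cells, and both lay above WT. *Krt6a* rose from 6.09 and 9.92 to 112 and 184 CPM (4.19 ± 0.33). Without TMM its LATS1/2 KO sums were 112 and 192 CPM, against 6.28 and 3.24 in the cells that are not epithelial. *Krt7* rose from 460 and 471 to 1132 and 1511 CPM (1.5 ± 0.17, adjusted p 0.00398), from a higher WT level than in luminal ER-negative cells.

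*Krt17* rose from 2.32 and 2.39 to 8.81 and 5.09 CPM (log2 fold change 1.62 ± 0.37, edgeR adjusted p 0.0259), and without TMM its LATS1/2 KO sums of 8.79 and 5.31 CPM lay under the 26.9 and 19.3 of the cells that are not epithelial. The call was lost without LATS1/2 KO replicate 1 (1.10, adjusted p 0.162). *Krt8* rose from 4968 and 4947 to 7134 and 7008 CPM (0.51 ± 0.15, adjusted p 0.0488). Replicates were close in both groups, but the call sits at the threshold and was lost without WT replicate 1 (adjusted p 0.387), WT replicate 2 (0.356) or LATS1/2 KO replicate 1 (0.0517). *Krt15* fell from 18.7 and 16 to 7.43 and 5.66 CPM (-1.36 ± 0.23, adjusted p 0.0113). *Krt5* (1.48 ± 0.49, adjusted p 0.0709), *Krt18* (0.10 ± 0.15, 0.647) and *Krt19* (-0.02 ± 0.26, 0.96) did not pass. *Krt5* passed without LATS1/2 KO replicate 2 (1.89, adjusted p 0.0479), and *Krt19* turned to 0.36 without WT replicate 1 and 0.14 without LATS1/2 KO replicate 2. *Krt8* per 100 *Krt18* UMIs was 72.3 and 75.5 in WT hormone-sensing cells and 98.2 and 98.0 in LATS1/2 KO. Among luminal ER-negative cells that ratio was 73.4, 77.2, 76.3 and 69.8. The *Krt14* rise depends on how the class is drawn. In hormone-sensing clusters made without keratins it was 7.80 and 3.04 CPM without TMM in WT and 132 and 42.4 in LATS1/2 KO (log2 fold change 4.07). Those LATS1/2 KO values are not clear of the cells that are not epithelial, whose mean *Krt14* was 101 CPM in LATS1/2 KO. Of the 2553 gated cells, 383 lay in clusters left unnamed.

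In basal cells 8 members were tested, and 6 were higher in LATS1/2 KO, 1 was lower and 1 was not called, where 34.1% of 8660 genes were called, 17.2% as higher and 16.9% as lower. Among the members tested, the largest rises were in keratins of luminal cells. *Krt7* went from 9.22 and 10.6 TMM-scaled CPM to 332 and 390 (log2 fold change 5.18 ± 0.25, edgeR adjusted p 1.96e-08). *Krt18* went from 397 and 311 to 1657 and 1895 CPM (2.33 ± 0.17), and *Krt8* from 448 and 452 to 1510 and 1840 CPM (1.90 ± 0.15). For these 3 genes the libraries of each group lay close together and far from the other group.

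The basal pair moved less. *Krt14* had 2201 and 1966 CPM in WT and 3018 and 2769 in LATS1/2 KO basal cells (log2 fold change 0.47 ± 0.15, edgeR adjusted p 0.0226), and *Krt5* 854 and 892 against 1244 and 1095 (0.42 ± 0.14, adjusted p 0.0338). The *Krt14* call was lost without LATS1/2 KO replicate 1 (adjusted p 0.108) or WT replicate 2 (0.104), and that of *Krt5* without LATS1/2 KO replicate 1 (0.18), WT replicate 1 (0.1) or WT replicate 2 (0.0675). *Krt17* rose from 727 and 666 to 1422 and 1045 CPM (0.82 ± 0.17, adjusted p 0.00196). *Krt15* was nearly lost, from 29.5 and 31.8 to 0 and 1.46 CPM (-4.96 ± 0.56), with 16 and 18 UMIs in WT and 0 and 4 in LATS1/2 KO, where 0 UMIs allow up to 1.80 CPM without TMM. Without LATS1/2 KO replicate 2 its fitted log2 fold change was -7.85, against a group then at 0 UMIs. *Krt19* (0.47 ± 0.18, adjusted p 0.0655) was not called but passed without WT replicate 1 (0.82, adjusted p 0.0123) and without LATS1/2 KO replicate 2 (0.56, adjusted p 0.0171). *Krt6a* and *Krt23* had too few counts for the test. *Krt6a* had 0 UMIs in both WT sums and 36 and 20 in LATS1/2 KO, which makes it at least 5.18-fold higher with the WT group set to 3 UMIs.

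The rise of *Krt8* and *Krt18* in basal cells depends on which cells are called basal. In basal clusters made without keratins, *Krt8* had 1037 and 709 CPM without TMM in WT and 1097 and 788 in LATS1/2 KO, and the log2 fold changes were -0.01 for *Krt8*, -0.19 for *Krt18* and -0.64 for *Krt19*, none of them called. *Krt7* (2.74) and *Krt14* (0.64) remained called there. The gated basal cells of LATS1/2 KO also carried more of the 7 epithelial markers (907 and 744 CPM in WT against 2597 and 2481) and less of the 12 basal markers (9888 and 11822 against 5286 and 5672), with all 7 and all 12 detected in each library. The part of these shifts in the keratin differences was not tested. Where cells are summed, fewer cells of a kind within a gate and less RNA per cell cannot be told apart.

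Whether a change differed between classes was tested directly, with the mouse as a block. Between luminal ER-negative and hormone-sensing cells the change differed for 2 of 10 members, a share near that of all genes. Of 13699 genes 17.5% were called, 7.13% in the positive and 10.4% in the negative direction. *Krt17* rose more in luminal ER-negative cells by 2.27 ± 0.28 on the log2 scale, and *Krt7* by 1.5 ± 0.19. Mean *Krt17* of LATS1/2 KO hormone-sensing cells was 7.05 CPM without TMM, under the 23.1 of the cells that are not epithelial. For *Krt14* the difference was -0.51 ± 0.59 (edgeR adjusted p 0.612), which turned to -1.37 without LATS1/2 KO replicate 1 (adjusted p 0.00744) and 0.37 without LATS1/2 KO replicate 2, and to 4.89 in cluster classes (adjusted p 3.7e-05). Between luminal ER-negative and basal cells 9 of 10 members differed, where 20.4% of 13295 genes were called, 8.85% in the positive and 11.6% in the negative direction. *Krt14* (6.52 ± 0.15), *Krt17* (2.97 ± 0.16) and *Krt5* (1.5 ± 0.21) rose more in luminal ER-negative cells, while *Krt7* (-2.24 ± 0.35), *Krt18* (-2.17 ± 0.12) and *Krt8* (-1.78 ± 0.13) rose more in basal cells. In cluster classes the last 3 of these passed in the opposite direction, at 0.91, 0.55 and 0.48 (edgeR adjusted p 0.0189, 0.0132 and 0.0107). For *Krt5*, the sums of LATS1/2 KO luminal ER-negative cells lay under those of the cells that are not epithelial. Its difference between the classes is therefore not clear of background. *Krt15* fell less in luminal ER-negative than in basal cells (2.70 ± 0.82), a call lost without LATS1/2 KO replicate 1, LATS1/2 KO replicate 2 or WT replicate 1, and *Krt19* (-0.82 ± 0.16) and *Krt23* (2.65 ± 0.70) differed too, the latter not without WT replicate 2 (1.49). The difference for *Krt6a* was -5.48 ± 5.30 and did not pass.

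Luminal and basal keratins were then counted within single cells. A cell was scored as co-detecting when it held at least 1 UMI of *Krt8*, *Krt18* or *Krt19* and at least 1 of *Krt5*, *Krt14* or *Krt17*, after thinning each cell to 2000 UMIs and leaving out shallower cells (42 to 120 luminal ER-negative cells per library). In luminal ER-negative cells the share was 1.36% (95% exact binomial interval 0.969 to 1.85) and 1.33% (0.885 to 1.92) in WT and 48.3% (45.7 to 50.8) and 32.6% (30.3 to 35.0) in LATS1/2 KO. All but 1 of these cells held a luminal keratin, so the share is in effect that of cells with a basal keratin UMI. The means were 1.34% ± 0.0214 in WT and 40.4% ± 11.1 in LATS1/2 KO (SD, n = 2 mice each), a difference of 39.1 percentage points. An exact permutation test of 2 against 2 mice cannot go below p = 0.333, the value found. *Krt14* alone was detected in 43.9% and 28.7% of these LATS1/2 KO cells, against 0.488% and 0.522% in WT, and in 21.9% and 11.6% of LATS1/2 KO cells that are not epithelial.

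In hormone-sensing cells the shares were 1.45% and 1.05% in WT and 26.6% and 29.9% in LATS1/2 KO, a difference of 27.0 points (exact permutation p = 0.333). In basal cells they were 76.0% and 77.9% in WT and 92.4% and 84.9% in LATS1/2 KO, a difference of 11.7 points. The same measure gives background in cells that are not epithelial: 0.585% and 2.06% in WT, and 22.5% and 8.67% in LATS1/2 KO, at median depths of 4852 and 4896 UMIs before thinning against 7808 and 8330 in luminal ER-negative cells. The shares of luminal ER-negative LATS1/2 KO cells exceed this background in both libraries, by more than the intervals. In hormone-sensing cells of LATS1/2 KO replicate 1 the share of 26.6% (22.4 to 31.2) overlaps the background of 22.5% (19.4 to 26), so a difference from it was not detectable there, whereas replicate 2 (29.9%, 22.8 to 37.8) lay above its 8.67%. A luminal keratin was found in 81.8% and 80.1% of WT and 93.2% and 87.9% of LATS1/2 KO basal cells, and in 53.2%, 54.6%, 85.4% and 55.9% of cells that are not epithelial. Both measures were higher in basal cells than in the cells that are not epithelial in each of the 4 libraries. Without thinning the shares in luminal ER-negative cells were 4.25%, 4.27%, 73.8% and 58.2%. Intervals cover counting error only.

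**Figure D4:**
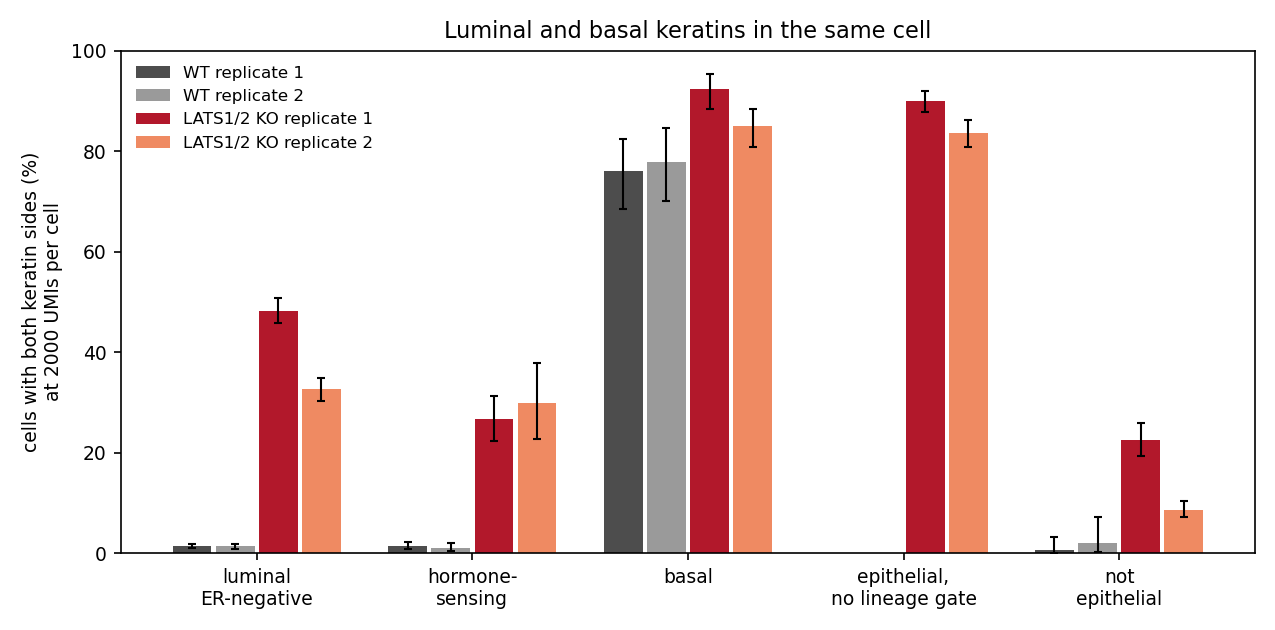
Share of cells (percent, each thinned to 2000 UMIs) with at least 1 UMI of a luminal and of a basal keratin, by cell class and library, with 95% exact binomial intervals. The luminal ER-negative bars are 1.36 and 1.33 for WT and 48.3 and 32.6 for LATS1/2 KO, while cells that are not epithelial show the background of each library.

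The balance of the 2 sets can also be read from the summed UMIs. The basal keratins *Krt5*, *Krt14* and *Krt17* made up 0.0906% and 0.0898% of all UMIs of the 6 keratins in WT luminal ER-negative cells and 5.56% and 4.02% in LATS1/2 KO. Luminal keratins still made up most of the keratin UMIs in these cells. In hormone-sensing cells the basal share was 0.0477% and 0.0432% in WT and 2.55% and 5.90% in LATS1/2 KO. In basal cells it was 79.1% and 80.3% in WT and 62.9% and 55.7% in LATS1/2 KO, and in LATS1/2 KO cells that are not epithelial 13.7% and 18%.

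Cells with *EYFP* UMIs were compared with cells without any in the 2 LATS1/2 KO libraries, blocked by mouse, to ask whether the keratins differ with the mark of Cre activity. With 2 mice this fit has 1 residual degree of freedom, so its p-values and standard errors rest on the spread pooled over genes. In all *EYFP* comparisons the ± values therefore do not measure the spread between the 2 mice. *EYFP*-positive luminal ER-negative cells were deeper (medians of 13618 and 15221 UMIs against 7168 and 7541). An *EYFP* count of 0 does not show that Cre was inactive. Of 9 members tested in luminal ER-negative cells, 4 were higher in *EYFP*-positive cells and 1 was lower, where 24.7% of 12025 genes were called, 13.4% as higher and 11.3% as lower. In some other fits fewer genes were called overall. Without the mouse as block edgeR called 0.0166% of all genes and no member (5 of 9 at an unadjusted p under 0.05), and DESeq2 with the block called 5.14% and 3 members. With each cell thinned to 2000 UMIs, 4 members were called as higher and 0 as lower, where 7.67% of genes were called. Values are CPM without TMM, *EYFP* = 0 first, in replicates 1 and 2. *Krt14* had 605 and 336 CPM and 1097 and 873 in *EYFP*-positive cells (log2 fold change 1.10 ± 0.09), and *Krt7* 838 and 626 against 1207 and 1269 (0.76 ± 0.08). *Krt6a* had 5.61 and 3.50 against 21.8 and 5.31 (1.45 ± 0.29), and *Krt8* 5005 and 4470 against 6147 and 5576 (0.30 ± 0.05), higher in both mice for both genes. *Krt5* was lower in *EYFP*-positive cells, with 8.97 and 6.07 against 2.21 and 3.76 CPM (-1.24 ± 0.33, edgeR adjusted p 0.0146). All of these *Krt5* values lay under those of the cells that are not epithelial, and the call was lost without the cells of highest doublet score (adjusted p 0.298) and in cluster classes (0.209). *Krt17* (-0.28 ± 0.13), *Krt18* (0.15 ± 0.05), *Krt19* (-0.16 ± 0.05) and *Krt23* (-0.44 ± 0.22) did not pass.

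In hormone-sensing cells 6 members were tested, 4 were higher and 1 lower, where 21.8% of 7736 genes were called, 11.6% as higher and 10.3% as lower (DESeq2 called 3 members and 4.14% of genes). Without the mouse as block (11.2% of genes called), and with cells thinned to 2000 UMIs (8.56%), 3 members were called, *Krt14*, *Krt6a* and *Krt7*, and *Krt8* and *Krt19* were not. *Krt14* showed the widest gap, with 176 and 317 CPM in *EYFP* = 0 cells and 2312 and 2700 in *EYFP*-positive cells (log2 fold change 3.36 ± 0.10). *Krt6a* had 67.1 and 104 against 325 and 320 CPM (1.93 ± 0.14), *Krt7* 951 and 939 against 1988 and 2501 (1.18 ± 0.09), and *Krt8* was higher by 0.30 ± 0.08. *Krt19*, whose WT level was higher in hormone-sensing than in other cells, was lower, with 7259 and 6308 against 5773 and 5321 CPM (-0.34 ± 0.08). *Krt18* (0.17 ± 0.08, edgeR adjusted p 0.0936) did not pass. Co-detection followed the same direction. It was 65.2% against 45.6% in replicate 1 and 49.4% against 29.2% in replicate 2 of luminal ER-negative cells (*EYFP*-positive against *EYFP* = 0), a mean difference of 19.9 points. In hormone-sensing cells it was 62.5% against 20.8% and 52.8% against 17.8%, where 20.8% is no higher than the 22.5% of cells that are not epithelial in that library.

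**Figure D5:**
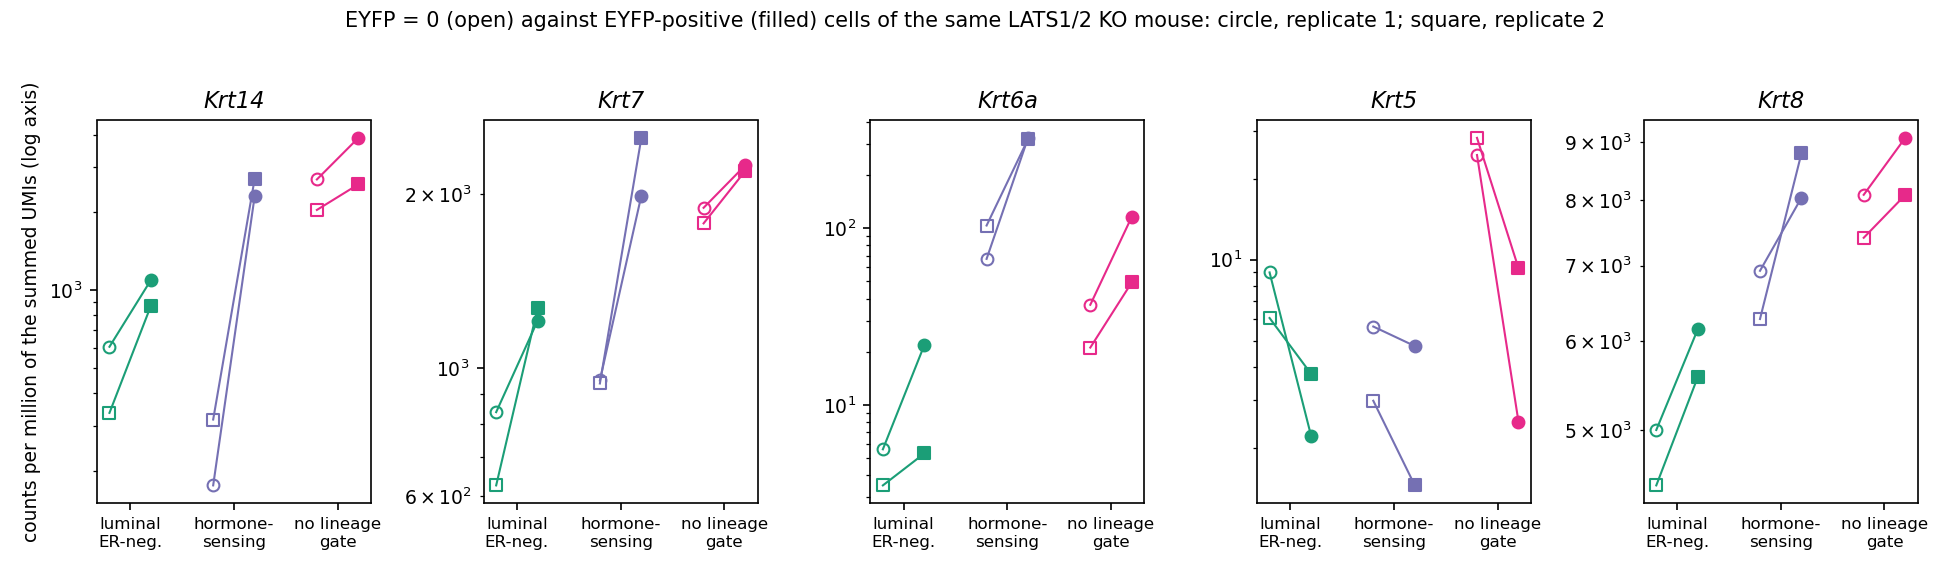
CPM of *Krt14*, *Krt7*, *Krt6a*, *Krt5* and *Krt8* in *EYFP* = 0 cells (open) and *EYFP*-positive cells (filled) of each LATS1/2 KO mouse and cell class. *Krt14* in hormone-sensing cells goes from 176 to 2312 and from 317 to 2700 CPM, while *Krt5* is lower in *EYFP*-positive luminal ER-negative cells of both mice.

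The cells with *EYFP* = 0 were also set against WT, a comparison that shares its WT libraries with those above. In luminal ER-negative cells the members called were *Krt14* (log2 fold change 6.75 ± 0.35), *Krt6a* (4.07 ± 0.45), *Krt17* (3.94 ± 0.28), *Krt7* (2.80 ± 0.17) and *Krt5* (2.22 ± 0.28) as higher and *Krt15* (-2.72 ± 0.47) as lower, where 52.4% of 13045 genes were called, 26.2% as higher and 26.3% as lower. The *Krt5* sums of these LATS1/2 KO cells lay under those of the cells that are not epithelial. Mean *Krt6a* without TMM was 4.55 CPM in them, against 4.76 in LATS1/2 KO cells that are not epithelial. Its rise is thus not clear of background either. In hormone-sensing cells 5 members were higher and 1 lower, where 23.4% of 11965 genes were called (12.4% as higher and 11.1% as lower). *Krt14* was at 5.74 ± 0.35, *Krt6a* at 3.36 ± 0.28 and *Krt7* at 1.02 ± 0.12. Without TMM mean *Krt14* was 246 CPM, against 101 in LATS1/2 KO cells that are not epithelial, with the smaller gap in replicate 1. Co-detection in replicate 1 was 20.8%, no higher than the 22.5% of those cells. *Krt17*, also called, had a mean of 6.64 CPM, under their 23.1. *Krt5* joined the calls here (1.67 ± 0.50, edgeR adjusted p 0.047), from 17 and 3 UMIs in LATS1/2 KO, or 5.64 and 2.99 CPM without TMM, under the 15.7 and 12.6 of the cells that are not epithelial. *Krt8* did not pass (0.41 ± 0.15, adjusted p 0.0778). Without LATS1/2 KO replicate 1, 3 members and 8.08% of genes were called there. In basal cells 6 were higher and 1 lower, where 33.9% of 8510 genes were called (17.1% as higher and 16.8% as lower), with *Krt7* at 4.24 ± 0.28, *Krt18* at 1.43 ± 0.16 and *Krt8* at 1.14 ± 0.15. The last 2 turned to -0.33 and -0.14 in basal clusters. Only 15 and 32 gated basal cells were *EYFP*-positive, too few for the test in replicate 1. Their *Krt8* sums were 8129 and 6780 CPM, against 1035 and 997 in *EYFP* = 0 basal cells, and their *Krt5* sums 381 and 500 against 1347 and 1268.

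The epithelial LATS1/2 KO cells that passed no lineage gate carried keratins of both sets. *EYFP* was detected in 47.1% and 57.3% of them, the highest shares of any gate. Their 10 luminal ER-negative markers summed to 1203 and 1150 CPM and their 12 basal markers to 206 and 229. *Krt8* stood at 8630 and 7860 CPM and *Krt18* at 9313 and 8981, above the sums over all cells of every gated class. Among *EYFP*-positive cells alone the levels were closer. Mean *Krt8* was then 8421 CPM in hormone-sensing cells and 8583 here, and mean *Krt18* 9021 in basal cells and 9395 here. *Krt14* reached 3339 and 2396 CPM and *Krt7* 2082 and 2054, while *Krt17* had 143 and 138, *Krt6a* 80.1 and 40.0 and *Krt5* only 12.5 and 15.6, as low as in cells that are not epithelial. Co-detection of a luminal and a basal keratin was 90.0% and 83.7%. *Krt14* itself was detected in 89.4% and 83.0% of these cells, of which 99.7% and 97.5% also held *Krt8*, and *Krt7* was detected in 92.5% and 90.0%. The WT libraries held too few such cells for a comparison. Of 8 members tested between *EYFP*-positive and *EYFP* = 0 cells of this kind, 4 were higher and 2 lower, where 5.58% of 11363 genes were called, 3.41% as higher and 2.17% as lower. *Krt6a* (1.52 ± 0.11), *Krt14* (0.46 ± 0.08), *Krt7* (0.30 ± 0.08) and *Krt19* (0.29 ± 0.08) were higher. *Krt5* was lower, with 24.5 and 28.4 CPM in *EYFP* = 0 and 2.50 and 9.30 in *EYFP*-positive cells (-2.15 ± 0.19), and so was *Krt17* (-0.47 ± 0.08). The *Krt5* gap was wider in replicate 1 than in replicate 2, a spread that its standard error does not measure. *Krt8* (0.17 ± 0.09) and *Krt18* (0.13 ± 0.09) did not pass. Without the mouse as block edgeR called 0.0264% of genes and no member (4 of 8 at an unadjusted p under 0.05), and DESeq2 called 0.449% and 3 members.

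Keratins outside the members were scarce. Of the 41 other keratin genes, 7 had enough counts for the test in luminal ER-negative cells, and 2 were higher in LATS1/2 KO and 1 lower, where 55.8% of all genes were called: *Krt42* (log2 fold change 2.39), *Krt4* (1.38) and *Krt78* (-2.55). All 3 were low, at 0.121 to 6.47 TMM-scaled CPM. In hormone-sensing cells 7 were tested and 2 were lower, where 26.5% of all genes were called, 12.1% as lower. These were *Krt77* (-4.75) and *Krt1* (-4.05), each with no more than 1 UMI in either LATS1/2 KO library. In basal cells 2 were tested, where 34.1% of all genes were called, 16.9% as lower. Of these, *Krt10*, a type I keratin of differentiating epidermis, was lower (-1.09, from 38.7 and 38.9 to 17 and 19 CPM).

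The proteins that anchor keratin filaments were followed as a list of 18 desmosome and hemidesmosome genes. In luminal ER-negative cells 17 were tested, 9 were higher and 3 lower in LATS1/2 KO, where 55.8% of all genes were called (28.7% as higher and 27.1% as lower), with a median log2 fold change of 0.69 beside 0.01 over all genes. *Dsg3*, a desmosomal cadherin of stratified epithelia, had 0 UMIs in WT and 46 and 30 in LATS1/2 KO, which makes it at least 38.4-fold higher with the WT group set to 3 UMIs. *Col17a1*, a hemidesmosome collagen that is also a basal gate marker, rose by 1.86 on the log2 scale. *Pkp2* (-0.99, from 70.1 and 70.8 to 38.3 and 32.8 TMM-scaled CPM) and *Jup* (-0.42), both desmosome plaque genes, fell. In hormone-sensing cells 15 were tested, 7 were higher and 1 lower (26.5% of all genes were called, 14.3% as higher), led by *Pkp1* (3.31, from 2.18 and 2.75 to 22.8 and 26.6 CPM) and *Ppl* (1.54), with *Dst*, a plakin of hemidesmosomes, lower (-0.61). In basal cells 15 were tested, 9 were higher and 1 lower (34.1% of all genes were called, 17.2% as higher). *Pkp2* (1.87) was higher there, the opposite direction to luminal ER-negative cells, and *Dst* was lower (-1.32), while *Dsg3* went from 0 UMIs in WT to 20 and 30 and was at least 4.62-fold higher.

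Among 7 other intermediate filament genes, *Vim*, the filament of mesenchymal cells, rose from 13.4 and 12.3 to 345 and 205 TMM-scaled CPM in luminal ER-negative cells (log2 fold change 4.42 ± 0.26). The fibroblast markers of the same sums went from 13.4 and 12.3 to 212 and 212 CPM without TMM, and their part in the *Vim* rise was not tested. *Nes*, a filament gene of progenitor cells, rose by 2.24 and *Lmna*, a nuclear lamin, fell from 2268 and 2068 to 766 and 705 CPM (-1.56). In all, 3 of 5 tested were higher and 1 lower, where 55.8% of all genes were called. In hormone-sensing cells 6 were tested and *Vim* alone was called (4.01), where 26.5% of all genes were called. In basal cells *Lmnb1* (1.61) and *Lmna* (0.89) were higher and *Synm* (-3.38) and *Vim* (-0.51) lower of 5 tested, where 34.1% of all genes were called.

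Over the 12 sums of 3 classes by 4 libraries, the genes whose level was most like that of *Krt8*, by Pearson's r of log2(CPM + 1) among 8195 genes with a mean of at least 10 CPM, were *Spint1* (0.98), *Gdpd1* (0.98) and *Dhx32* (0.98). For *Krt14* they were *Fblim1* (0.99), *Lamb1* (0.99) and *Flna* (0.98). The sums share libraries and depth, so these values describe the pattern alone.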

How the data were processed

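Single cells of 4 mouse mammary gland libraries (2 WT, 2 LATS1/2 KO) were counted by the 10x 3' v3 chemistry. The authors deposited raw UMI counts for each gene and barcode, in whole numbers and without normalization. The matrix headers name Cell Ranger 6.1.2, the submitters' processing notes Cell Ranger 3.1.0 and mm10, and which version made the counts was not settled. No row lacked a gene name, and no member shares its symbol with another row. Every value column was used (0 columns outside the series).

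Cells with over 500 genes and under 20% mitochondrial counts were kept. Marker UMIs per 10000 were divided by a typical level (180 luminal ER-negative, 60 hormone-sensing, 60 basal). A cell entered a lineage gate with at least 3 UMIs of its list, a scaled score of at least 0.2 and a 2-fold lead, with less than 15 stromal marker UMIs per 10000. Luminal gates also needed at least 20 epithelial marker UMIs per 10000, and the basal gate 1 UMI of *Trp63*, *Oxtr*, *Cxcl14*, *Col17a1* or *Cdh3*. Of the gated cells, 4.37% basal, 2.86% hormone-sensing and 2.98% luminal ER-negative lay within 1.5-fold of the score limit. These cells were mostly of LATS1/2 KO, with 5.51% and 7.22% of basal, 10.3% and 16.9% of hormone-sensing and 7.54% and 6.26% of luminal ER-negative cells there, against 0 to 0.837% in WT. These limits were set after marker levels had been seen, with no keratin used. The members and lists were chosen with earlier results of these data known. Doublets were kept, since the authors' methods state no removal, and as an alternative the 5% of cells with the highest Scrublet score per library were left out.

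UMIs were summed per gate and library and tested with edgeR 4.0.16 in R 4.3.3 (filterByExpr, then TMM, and a quasi-likelihood F test with p-values adjusted by Benjamini-Hochberg over all genes tested, threshold 0.05), with 1 sum per mouse of at least 20 cells. *EYFP* and class differences were blocked by mouse. The standard errors given are the absolute log2 fold change divided by the square root of F. DESeq2 1.42.0, other scalings and filters, clusters made without keratins and *EYFP* (scanpy 1.11.5, Leiden) and each library left out were alternatives. The comparisons of *EYFP* = 0 hormone-sensing and basal cells with WT, those in epithelial cells with no lineage gate, the widened gate and the fits without TMM were chosen after seeing the data. CPM are counts scaled to a common total of all genes in the sum. All members are named. Of other lists, up to 3 keratins of largest change, or up to 2 rises and 2 falls, were named per class among those called. WT and LATS1/2 KO mice of the same number do not pair (correlations of 0.018, 0.0272 and -0.00278). Libraries of a group differed beyond sampling noise (chi-square per degree of freedom 1.79 to 23.6). The tests were run on simulated counts with known changes, drawn at a common dispersion and without block or class terms. True log2 changes of 1 were recovered for 93.9% of genes in luminal ER-negative, 45.5% in hormone-sensing and 37.6% in basal cells. For the difference between luminal ER-negative and basal cells it was 30.3%, so changes of this size can be missed.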

Additional observations from a re-analysis of the deposited data

Results flagged for a closer look

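The change between LATS1/2 KO and WT differed between cell classes for several keratins, each by an interaction term fitted with edgeR over all genes and blocked by mouse. Values are the log2 fold change in luminal ER-negative cells minus that in the other class. Against hormone-sensing cells, *Krt17* (2.27) and *Krt7* (1.5) differed, both rising more in luminal ER-negative cells. These are 2 of 10 members tested, a share near the 17.5% called over all 13699 genes. For *Krt17*, the LATS1/2 KO hormone-sensing mean of 7.05 CPM without TMM lay under the 23.1 of the cells that are not epithelial. Against basal cells, where 20.4% of 13295 genes were called, the basal keratins *Krt14* (6.52), *Krt17* (2.97) and *Krt5* (1.5, not clear of background) rose more in luminal ER-negative cells. *Krt15*, which fell in both, fell less there (2.70), a call lost without LATS1/2 KO replicate 1 (2.38, adjusted p 0.0532), LATS1/2 KO replicate 2 (7.82, adjusted p 0.121) or WT replicate 1 (2.36, adjusted p 0.0918). *Krt23* (2.65) had few UMIs in basal cells, and was not called without WT replicate 2 (1.49, adjusted p 0.377), while it reached 4.0 without LATS1/2 KO replicate 2. The keratins of luminal cells *Krt7* (-2.24), *Krt18* (-2.17) and *Krt8* (-1.78) rose more in basal cells, and *Krt19* (-0.82), which reached -1.26 without WT replicate 1, passed in the same direction. In cluster classes made without keratins the signs of these 4 were positive, and *Krt7* (0.91, adjusted p 0.0189), *Krt18* (0.55, 0.0132) and *Krt8* (0.48, 0.0107) passed in that opposite direction, *Krt19* (0.23, 0.451) not.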

How the results depend on the processing

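Depth left *Krt6a* and *Krt23* untested in basal cells and *Krt23* in hormone-sensing cells, and *Krt15* had 0 and 4 UMIs in basal LATS1/2 KO sums. For single keratins, 802 of the alternative values kept their direction and their side of the threshold, 41 newly passed it, 47 no longer passed it and 22 changed sign. Leaving out a library leaves its group without a replicate, and the share of all genes called moved too. Counts of called members are therefore not compared over those fits. The log2 fold changes of the members tested kept their sign in luminal ER-negative and basal cells. In hormone-sensing cells all but *Krt19* (-0.35 to 0.36) did. In *EYFP* = 0 cells against WT all members kept their sign in luminal ER-negative cells. So did *Krt14*, *Krt6a* and *Krt7* in hormone-sensing cells, and *Krt7*, *Krt18*, *Krt8*, *Krt14* and *Krt15* in basal cells. The differences between classes kept their sign for every called member. With each library left out, co-detection differences ranged from 31.3 to 46.9 percentage points in luminal ER-negative, 25.4 to 28.6 in hormone-sensing and 7.99 to 15.4 in basal cells.

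With a replicate block in the comparisons of all gated cells, *Krt8* in hormone-sensing cells no longer passed (edgeR adjusted p 0.0544). There *Krt19* in basal cells passed (0.49, adjusted p 0.0379) and *Krt19* in hormone-sensing cells turned to 0.0097.

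The *EYFP* comparison in luminal ER-negative cells called 5 members as reported (24.7% of all genes), 8 in cluster classes (41.3%), 8 with *EYFP* at 2 UMIs or more (30.4%), 8 with no low-count filter (18.3%), 3 by DESeq2 (5.14%) and 0 without the mouse as block (0.0166%). In hormone-sensing cells (21.8% as reported) it called 3 when cells were thinned to 2000 UMIs (8.56%), 3 by DESeq2 (4.14%) and 3 without the block (11.2%), and in cells with no lineage gate (5.58% as reported) 3 by DESeq2 (0.449%) and 0 without the block (0.0264%). In cluster classes 6 members differed between luminal ER-negative and hormone-sensing cells, where 31.1% of genes did (17.5% as reported). The cause of these shifts was not tested.

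Sign changes came mainly with cluster classes. They gave -0.15 for *Krt23* in luminal ER-negative cells (-0.28 with the widened gate) and -0.011, -0.19 and -0.64 for *Krt8*, *Krt18* and *Krt19* in basal cells, with -0.14 and -0.33 for *Krt8* and *Krt18* in *EYFP* = 0 basal cells. *EYFP* differences turned to 0.17 for *Krt17* in luminal ER-negative and 0.044 for *Krt19* in hormone-sensing cells. The class difference turned to 4.89 for *Krt14* against hormone-sensing cells, and to 0.48, 0.55, 0.23 and 0.91 for *Krt8*, *Krt18*, *Krt19* and *Krt7* against basal cells. Without TMM *Krt19* was 0.085 in luminal ER-negative (0.12 with *EYFP* = 0) and 0.038 in hormone-sensing cells. A mitochondrial limit of 10% gave 0.014 there, and leaving out each library gave -0.35 (without WT replicate 2) to 0.36 (without WT replicate 1), with 0.14 without LATS1/2 KO replicate 2. *Krt14* against hormone-sensing cells ranged from -1.37 without LATS1/2 KO replicate 1 to 0.37 without LATS1/2 KO replicate 2. The cause was not tested.

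Co-detection moved with how cells were counted. In luminal ER-negative cells the difference was 19.5 points with at least 2 UMIs on each side, 53.2 thinned to 4000 UMIs, 61.8 not thinned, 52.4 in cluster classes and 54.6 with the widened gate. In hormone-sensing cells these were 15.5, 32.6, 45.1 and, in cluster classes, 13.3. In basal cells they were 32.2 with at least 2 UMIs and 6.39 thinned to 4000. The *EYFP* difference in luminal ER-negative cells was 16 with at least 2 UMIs, 18.6 thinned to 4000, 22.9 not thinned, 28.3 in cluster classes and 19.5 without the highest doublet scores. In cells with no lineage gate it was 2.93 as measured, 8.42 with at least 2 UMIs and 4.74 not thinned.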
